A study of Mus musculus with 6 samples.

Results

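Heme is made from glycine and succinyl-CoA by a chain of enzymes that starts and ends in the mitochondrion, and it is broken down by heme oxygenase. The set described here holds 9 of the 34745 genes in the deposited table, chosen by symbol: the 2 forms of the entry enzyme (Alas1 and Alas2), the cytosolic enzymes Alad, Uros and Urod, the late enzymes Cpox, Ppox and Fech, and the inducible heme oxygenase Hmox1. Each symbol had a single row, and all 9 passed the filter on low counts. RNA was from LSECs, the sinusoidal endothelium of the liver, in 3 libraries from mice labelled Tgfbr2 ECKO (called ECKO here), an endothelial knockout of Tgfbr2, the type II receptor for TGF-beta, and 3 libraries from Tgfbr2f/f mice (called f/f, titled WT-CCL4). Mice of both genotypes were given CCl4 (carbon tetrachloride, which injures hepatocytes and causes fibrosis) by injection into the peritoneum 2 times a week for 6 weeks. The labels name neither the Cre driver, age and sex nor the way the cells were isolated. They also leave it unsaid whether the libraries are different mice, so p-values speak for the spread among these 6 libraries, which may be technical.

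Total counts were 17171850 to 18671217 in the ECKO libraries and 17632271 to 25062755 in the f/f libraries. Tgfbr2 held 487 to 511 CPM (counts scaled to library size) in the ECKO libraries and 387 to 452 CPM in the f/f libraries, and the labels do not say which part of the gene is deleted, so these counts do not check the deletion. Sinusoidal endothelial markers were abundant in both groups: the 12 listed, among them Stab2, Lyve1 and Clec4g, summed to 24995 to 30198 CPM in the ECKO libraries and 23517 to 27450 CPM in the f/f libraries, and edgeR called 1 of them, Pecam1, higher in ECKO (adjusted p = 0.0456). That call was lost in 11 of 14 alternatives, limma-voom (0.0509) and each fit with a library left out (0.0554 to 0.164) among them. DESeq2 called 2 higher, Pecam1 and Oit3 (adjusted p = 0.00687 for Oit3). In edgeR 10 of the 12 had a positive log2 fold change and 2 a negative one. Before adjustment 4 of them had p under 0.05, beside 3214 of the 13692 genes tested. Across the table, edgeR's quasi-likelihood test called 170 genes higher and 382 lower in the ECKO libraries at an adjusted p (Benjamini-Hochberg, over 13692 genes) under 0.05, which is 4.03% of the genes tested. The 9 genes were put forward with results of this same comparison known, so their differences between the groups, and the p-values beside them, are a description and not independent evidence.

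The entry enzyme, 5-aminolevulinate synthase, sets the rate of the pathway and exists in 2 forms. ALAS1 is made in most tissues, is most active in hepatocytes, and is shut down by heme itself. ALAS2, encoded on the X chromosome, is known as the form of developing red cells, where GATA1 drives its transcription. The intermediates then pass through cytosolic enzymes that include ALAD, UROS and UROD and through CPOX, PPOX and FECH in the mitochondrion, where ferrochelatase inserts iron. HMOX1 opens the ring to release biliverdin, carbon monoxide and iron. Its gene is repressed by the heme sensor BACH1 and induced by NRF2, and it is a widely used marker of stress in endothelium and macrophages.

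Alas2 had the largest difference among the 9 genes. The 250 bases before its start site are shown with those of its housekeeping counterpart Alas1, and with those of Cpox. Cpox has a GATA motif at the same distance as Alas2, spelled TGATAA where that of Alas2 is AGATAA. The windows are RefSeq's on GRCm38.p6, written 5′ to 3′ on the gene's own strand. They lie at chrX:150547167-150547416 on the plus strand for Alas2, chr16:58669958-58670207 on the plus strand for Cpox and chr9:106247731-106247980 on the minus strand for the downstream of the 2 windows of Alas1. Capitals mark GATA motifs (AGATAA and also AGATAG, or TGATAA and also TGATAG, on both strands) in Alas2 and Cpox, and the core of the NRF1 motif (GCGCATG, on both strands) in Alas1.
Alas2: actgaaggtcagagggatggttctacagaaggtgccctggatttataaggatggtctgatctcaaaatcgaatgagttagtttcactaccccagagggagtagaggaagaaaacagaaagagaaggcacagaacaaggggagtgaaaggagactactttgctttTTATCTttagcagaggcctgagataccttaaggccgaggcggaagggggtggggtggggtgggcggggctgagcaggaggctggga
Cpox: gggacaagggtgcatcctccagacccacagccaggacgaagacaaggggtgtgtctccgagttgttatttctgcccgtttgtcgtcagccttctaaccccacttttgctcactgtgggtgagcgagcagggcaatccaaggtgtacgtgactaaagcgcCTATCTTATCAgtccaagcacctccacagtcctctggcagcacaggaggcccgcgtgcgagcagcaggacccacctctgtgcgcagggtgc
Alas1: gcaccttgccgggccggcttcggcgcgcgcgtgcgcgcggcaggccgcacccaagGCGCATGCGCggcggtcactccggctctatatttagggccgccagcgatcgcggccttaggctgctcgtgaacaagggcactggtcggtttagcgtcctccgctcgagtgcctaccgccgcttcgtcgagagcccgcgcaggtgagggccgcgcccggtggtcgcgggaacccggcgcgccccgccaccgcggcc

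Alas2 held 1 GATA motif, which began 86 bases before the start. Cpox, the coproporphyrinogen oxidase gene, held 2 that share a base and began 91 and 86 bases before its start. The second window of Uros held 2 as well, at 205 and 68 bases. A GATA motif of these 4 spellings was present before 26.5% of the 32851 RefSeq start sites searched. The window of Alas1 shown held 2 NRF1 cores on opposite strands, which overlap each other, at 195 and 192 bases before the start. The other window of Alas1 held 0, and 3.24% of start sites had one. Of the 9 genes, 7 had a window, and Fech and Hmox1 had none. The core of the element bound by BACH1 and NRF2 (TGANNNNGC) occurred before a start of Uros and of Cpox among those 7, and before 35.2% of all start sites. The E-box CACGTG, a site shared by clock factors and others, occurred before starts of Alad, Uros and Urod and 6.02% of all. The loop of the iron-responsive element (letters CAGTGN) was searched on the transcribed strand only, in the 50 bases after each start. Its letters were found after a start of Alad and of 7.08% of all, and Alas2 had 0. Bases farther into the transcripts were not searched, so an element beyond those 50 bases, in Alas2 or another gene, would be missed. These matches describe letters and not binding.

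Alas2 (ENSMUSG00000025270, X:150547375-150570638 on mm10/GRCm38, plus strand) held 10.4, 8.42 and 6.996 CPM in the ECKO libraries, from 156, 145 and 122 counts, against 1.92, 1.28 and 2.28 CPM in the f/f libraries, from 46, 26 and 55 counts. Every ECKO library lay above every f/f library, and the lowest ECKO value was over the highest f/f value by more than the spread within either group. The means were 8.60 ± 1.70 CPM in ECKO and 1.83 ± 0.507 CPM in f/f (SD, n = 3 each), a 4.67-fold higher level in ECKO (log2 fold change 2.22, SE 0.28). In edgeR's quasi-likelihood fit over the whole table its adjusted p was 0.0108, and its p ranked 61 among the 13692 genes. Alas2 was the only 1 of the 9 past the threshold, beside 1.24% of all genes called higher, while 0 of the 9 were lower, beside 2.79% of all. Nothing is read from these shares, since the comparison also chose the genes. Without ECKO replicate 1, the library with the highest Alas2 level, the log2 fold change was 2.08 and the adjusted p 0.0592.

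**Figure D1:**
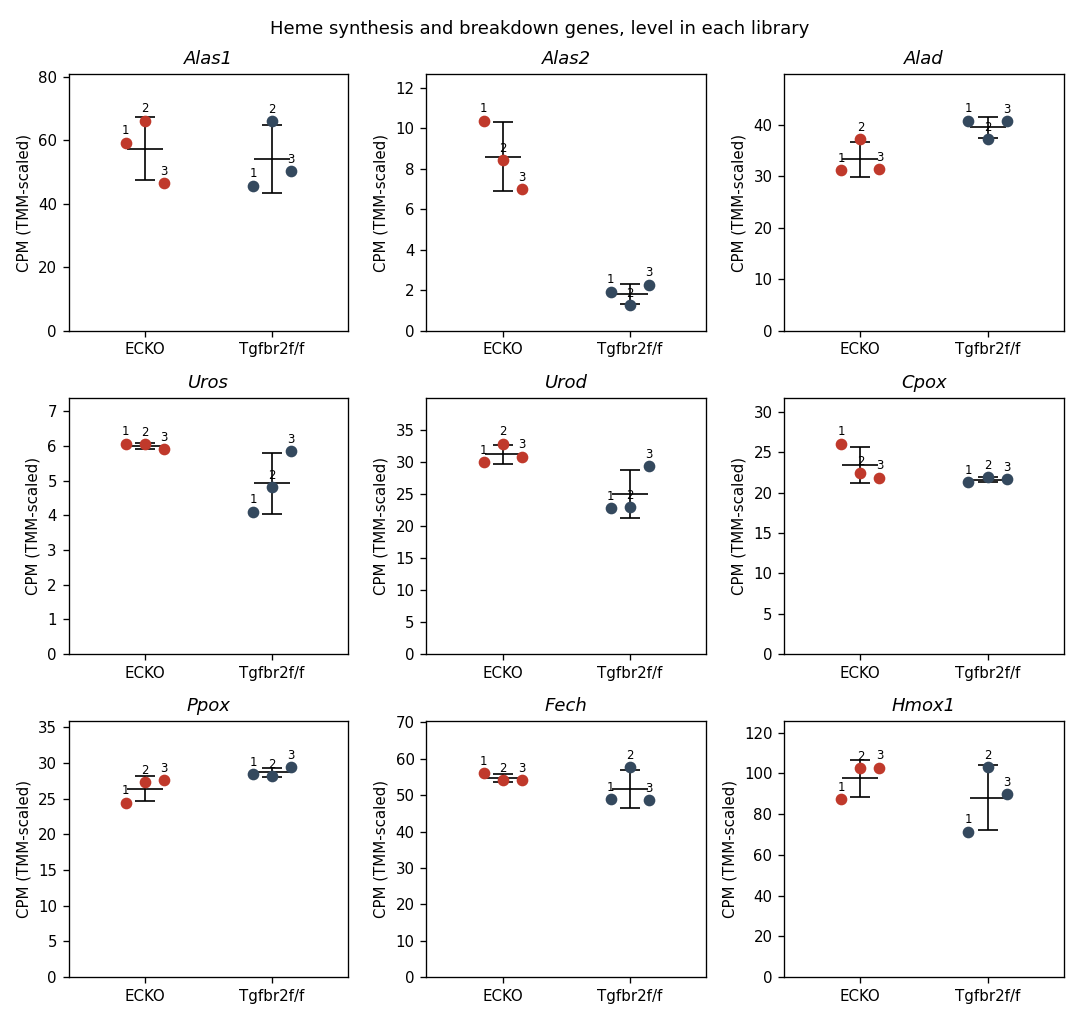
Level of each of the 9 genes in CPM (TMM-scaled) in the 3 ECKO and 3 Tgfbr2f/f libraries; points are libraries with their replicate number, the horizontal line is the mean and the bars are 1 SD. Alas2 sits at 6.996 to 10.4 CPM in ECKO and 1.28 to 2.28 CPM in Tgfbr2f/f, while the ranges of Alas1, Alad, Cpox, Fech and Hmox1 overlap between the groups.

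The red cell markers did not follow Alas2. Hba-a1, an alpha globin, held 0.459 to 1.13 CPM in the ECKO libraries and 1.71 to 3.05 CPM in the f/f libraries (log2 fold change -1.63, SE 0.41, adjusted p = 0.0704). Hbb-bs, a beta globin, held 1.43 to 2.32 CPM in ECKO and 2.34 to 7.75 CPM in f/f (-1.60, SE 0.46, adjusted p = 0.0937). The 4 globin genes together gave 55, 70 and 40 counts in the ECKO libraries and 132, 237 and 327 counts in the f/f libraries, so there were 2.07 to 3.05 Alas2 counts for each globin count in ECKO and 0.110 to 0.348 in f/f. The globin loci have near-identical copies that can share reads, which their sum is less open to.

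Of the 12 erythroid markers listed, 5 were tested, 4 globins and Epor, the erythropoietin receptor, and none passed with edgeR, although the p was under 0.05 before adjustment for the 4 globins. DESeq2 called 3 of the globins lower in ECKO (Hba-a1, Hbb-bs and Hbb-bt, adjusted p = 0.0103, 0.011 and 0.0478), and limma-voom 0. The list's summed level was 15.2 to 19.6 CPM in ECKO and 20.95 to 33.6 CPM in f/f, and most of it was Epor, at 10.4 to 16.2 CPM in ECKO and 14.1 to 19.3 CPM in f/f. Gata1, the transcription factor of red cell precursors, had 0 counts in all 6 libraries; a count of 0 allows up to 3 counts, or 0.124 to 0.200 CPM depending on the library. The untested markers, among them Slc4a1, Klf1, Sptb and Ermap, reached at most 0.933 CPM in any library. In bulk RNA like this, fewer cells of a type and less RNA per cell cannot be told apart.

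**Figure D2:**
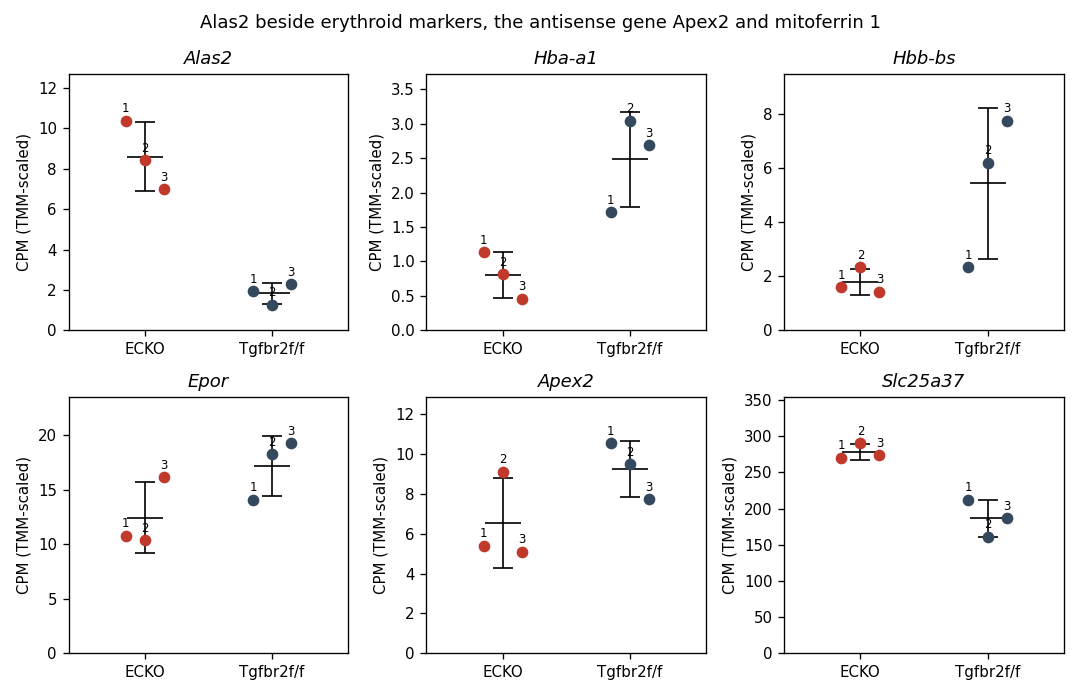
CPM (TMM-scaled) of Alas2, the globins Hba-a1 and Hbb-bs, Epor, Apex2 (which overlaps Alas2 on the other strand) and Slc25a37 in each ECKO and Tgfbr2f/f library; points are libraries with their replicate number, lines are means and bars 1 SD. Alas2 and Slc25a37 are higher in every ECKO library, while Hba-a1 and Hbb-bs are lower in every ECKO library, neither past the threshold in edgeR.

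Alas2 lies within the annotated span of Apex2, a DNA repair endonuclease gene on the other strand, and 311 of its exon bases (12.9% in GENCODE M21) are also exon of Apex2. The counting is not stated to use strand, so reads there cannot be assigned with certainty. Apex2 held 5.39, 9.12 and 5.10 CPM in the ECKO libraries and 10.5, 9.48 and 7.75 CPM in the f/f libraries (log2 fold change -0.50, SE 0.26, adjusted p = 0.283), the opposite sign to Alas2. Among 12802 other genes averaging at least 1 CPM, the 3 whose profile over the 6 libraries was nearest to that of Alas2, by the root mean square difference of centred log2 CPM, were Egfem1 (0.269), Rab22a (0.286) and Ugt2b1 (0.291). Egfem1 held 4.997 to 5.86 CPM in ECKO and 1.23 to 1.74 CPM in f/f, Rab22a, a small GTPase of endosomes, 81.9 to 90.0 CPM in ECKO and 15.6 to 16.7 CPM in f/f, and Ugt2b1, a glucuronosyltransferase, 3.84 to 6.57 CPM in ECKO and 0.884 to 1.71 CPM in f/f. All 3 were higher in every ECKO library, which follows from choosing them by likeness to Alas2 over these same libraries.

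Alas1 (ENSMUSG00000032786, 9:106233455-106248126, minus strand) held 59.3, 66.2 and 46.6 CPM in the ECKO libraries and 45.7, 66.1 and 50.3 CPM in the f/f libraries. The groups overlapped throughout, with the lowest and highest libraries of each group within 1 CPM of one another (log2 fold change 0.09, SE 0.18, adjusted p = 0.798). The spread between libraries of a group, 9.97 CPM in ECKO and 10.7 CPM in f/f (SD, n = 3 each), was larger than the difference between the groups. Per length, in the authors' FPKM (counted fragments relative to gene length and library size), Alas2 stood at 37.2%, 27.0% and 31.9% of Alas1 in the ECKO libraries and at 8.94%, 4.10% and 9.62% in the f/f libraries. That ratio does not depend on how libraries are scaled, and the groups did not overlap. Alas1 was the more abundant form per length in every library.

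None of the 3 cytosolic enzymes passed. Alad (aminolevulinate dehydratase, which joins the product of ALAS into a pyrrole; ENSMUSG00000028393, 4:62509169-62519918, minus strand) held 31.2, 37.2 and 31.4 CPM in the ECKO libraries and 40.8, 37.2 and 40.7 CPM in the f/f libraries. ECKO replicate 2 and f/f replicate 2 had almost the same level, and the other ECKO libraries lay below all f/f libraries (log2 fold change -0.25, SE 0.11, adjusted p = 0.224). Uros (uroporphyrinogen III synthase, which closes the ring; ENSMUSG00000030979, 7:133686243-133710072, minus strand) held 6.06, 6.04 and 5.91 CPM in ECKO and 4.10, 4.81 and 5.84 CPM in f/f. The f/f libraries varied and the highest of them came within 0.1 CPM of the lowest ECKO library (0.29, SE 0.20, adjusted p = 0.414).

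Urod (uroporphyrinogen decarboxylase, the last cytosolic enzyme; ENSMUSG00000028684, 4:116989965-116994413, minus strand) held 29.9, 32.8 and 30.8 CPM in the ECKO libraries and 22.7, 22.9 and 29.3 CPM in the f/f libraries. The groups did not overlap, though f/f replicate 3 nearly reached the lowest ECKO library. Its log2 fold change of 0.32 (SE 0.13) had the smallest p of the 8 genes that did not pass (adjusted p = 0.192).

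None of the late enzymes passed either, and their log2 fold changes lay between -0.12 and 0.12. Cpox (ENSMUSG00000022742, 16:58670208-58680391, plus strand) held 26.0, 22.4 and 21.8 CPM in ECKO and 21.3, 21.9 and 21.6 CPM in f/f; only ECKO replicate 1 stood apart (0.12, SE 0.11, adjusted p = 0.566). Ppox (protoporphyrinogen oxidase; ENSMUSG00000062729, 1:171275990-171281186, minus strand) held 24.4, 27.3 and 27.6 CPM in ECKO and 28.5, 28.2 and 29.5 CPM in f/f, without overlap but with a small difference (-0.12, SE 0.10, adjusted p = 0.509). Of its exon bases 17.5% are also exon of B4galt3 on the other strand, a gene at 29.0 to 32.5 CPM in ECKO and 33.1 to 35.5 CPM in f/f. Fech (ferrochelatase; ENSMUSG00000024588, 18:64456550-64489066, minus strand) held 56.1, 54.0 and 54.1 CPM in ECKO and 48.9, 57.7 and 48.6 CPM in f/f, and the ECKO libraries lay inside the range of f/f (0.08, SE 0.10, adjusted p = 0.660).

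Hmox1 (ENSMUSG00000005413, 8:75093591-75100596, plus strand) held 87.3, 102 and 103 CPM in the ECKO libraries and 71.5, 103 and 89.8 CPM in the f/f libraries. The ranges overlapped, and the lowest library of all was f/f replicate 1 (log2 fold change 0.15, SE 0.15, adjusted p = 0.577). Kupffer cells and other macrophages also carry Hmox1, and none of 11 tested macrophage markers passed with edgeR, 3 having p under 0.05 before adjustment, among them Cd68 and Marco, which were lower in each ECKO library. DESeq2 also called Cd68 lower, and Clec4f, at 7.09 to 14.6 CPM in ECKO and 3.64 to 6.09 CPM in f/f, higher (adjusted p = 0.0265 and 0.00475); limma-voom called 0. The list of 12 summed to 70.4 to 97.9 CPM in ECKO and 58.0 to 116 CPM in f/f, lowest in the same f/f replicate 1. The f/f libraries had the same order for Hmox1 and for the list, and the ECKO libraries did not. In ECKO the list was lowest in replicate 2, with Hmox1 at 102 CPM. Hmox1 was lowest in ECKO replicate 1, where the list summed to 87.9 CPM. The part of macrophages in the Hmox1 level was not tested.

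**Figure D3:**
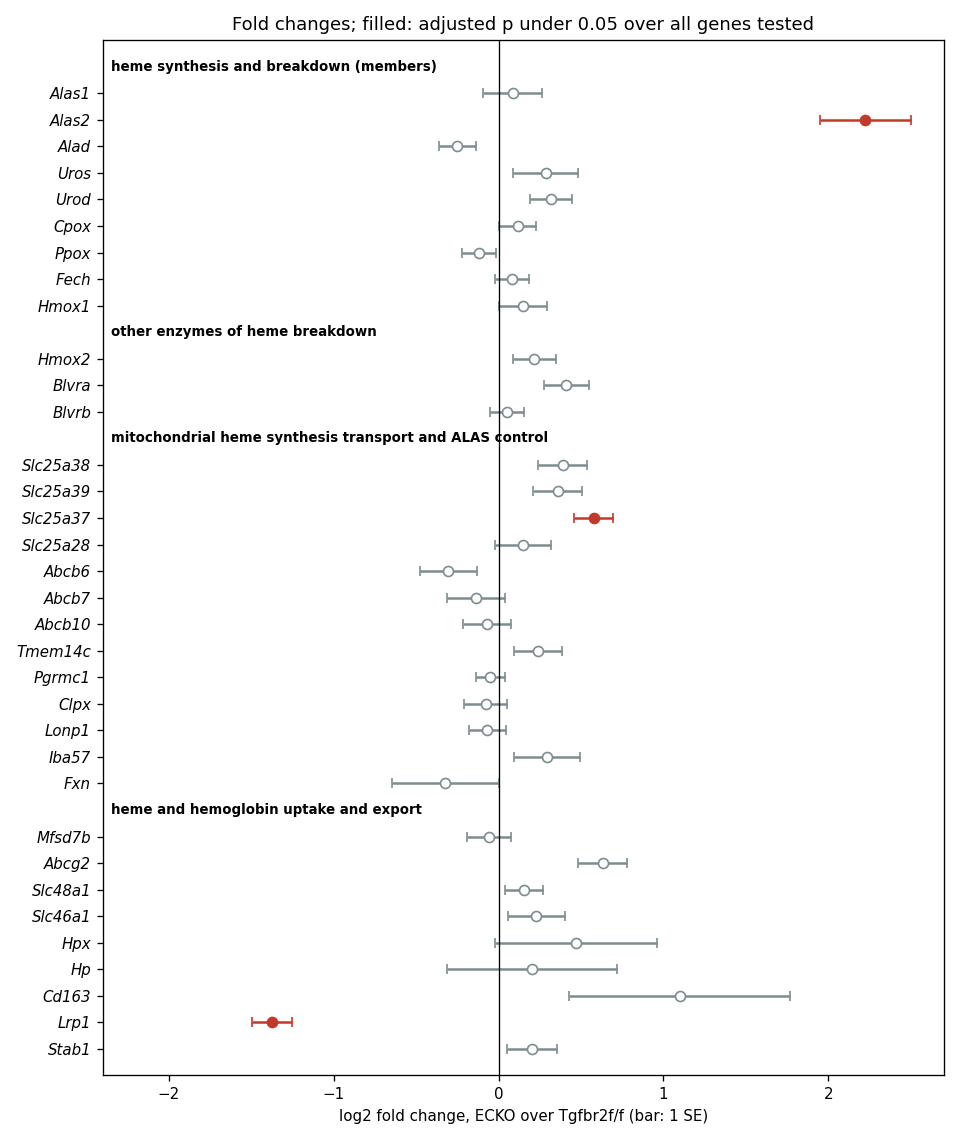
Log2 fold change of ECKO over Tgfbr2f/f (x axis) with 1 SE for the 9 genes, the other enzymes of heme breakdown, the mitochondrial transport and control genes, and the uptake and export genes; filled points have an adjusted p under 0.05. Alas2 at 2.22, Slc25a37 at 0.58 and Lrp1 at -1.37 are filled.

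Of the 9 genes, 4 separated the groups without overlap (Alas2, Uros and Urod higher and Ppox lower in ECKO), against 30.9% of all genes tested. The 8 genes that did not pass had log2 fold changes from -0.25 to 0.32, with a median of 0.10 beside 0.01 for all genes. Their direction depends on scaling where they are close to 0. Scaling by total count shifts the median of all genes to -0.22 and the deposited FPKM shifts it to -0.19 (pseudocount 0.1). On both, Alas1, Cpox, Fech and Hmox1 turned negative, while Alas2 stayed at 1.98 and 1.85. Relative to those medians the 4 genes were at or slightly above the typical gene.

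In the order of levels per length Alas2 came last in f/f and second to last in ECKO, and Fech and Alad, which overlapped, changed places. In the ECKO libraries Hmox1 led with 32.7 ± 5.70 FPKM, followed by Fech (17.4 ± 1.28) and Alad (14.9 ± 2.81), then Alas1 (7.82 ± 1.75), Cpox (6.75 ± 0.320) and Urod (5.74 ± 0.792), then Ppox (2.93 ± 0.440) and Alas2 (2.46 ± 0.365), and last Uros (0.886 ± 0.0809; SD, n = 3 each). Neighbours whose libraries overlapped were Fech with Alad, Alas1 with Cpox, Cpox with Urod, and Ppox with Alas2. In the f/f libraries Hmox1 led with 35.1 ± 9.44 FPKM, then Alad (20.7 ± 1.98) and Fech (19.5 ± 3.44), Alas1 (8.75 ± 2.41), Cpox (7.39 ± 0.883) and Urod (5.45 ± 1.23), and Alas2 came last with 0.621 ± 0.187 FPKM, overlapping Uros at 0.865 ± 0.230 FPKM. Ppox, at 3.75 ± 0.437 FPKM, was above both without overlap.

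These levels rest on the gene lengths behind the authors' FPKM. For Fech that length is 2901 bases, against 13838 bases of exon in GENCODE M21, and for Cpox 3186 against 6661. With M21 lengths, an alternative added after the data were seen, Hmox1 stayed the highest in both groups, Fech was number 6, and Alas2 was number 7 at 3.28 FPKM in ECKO and last at 0.826 FPKM in f/f.

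**Figure D4:**
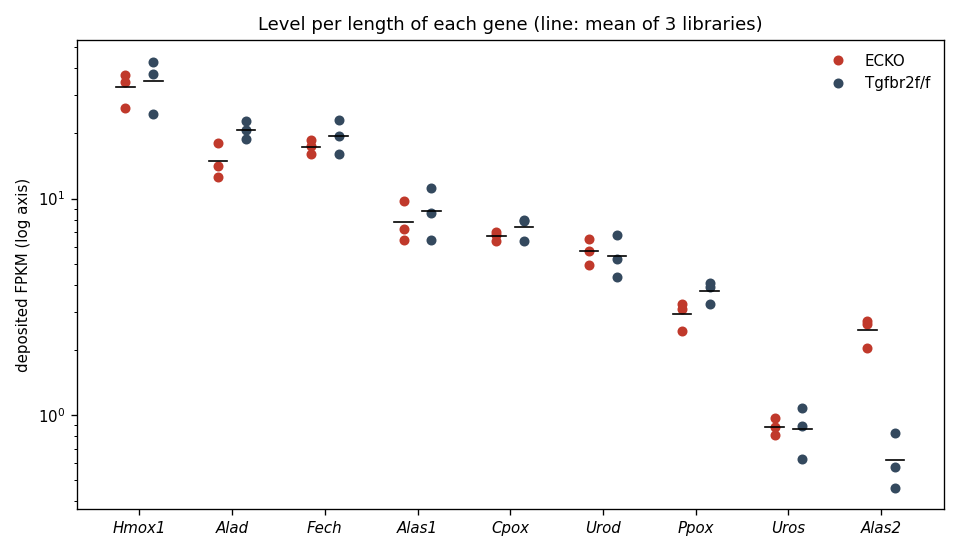
Deposited FPKM on a log axis for each of the 9 genes, ordered by the Tgfbr2f/f mean; points are the 3 ECKO and 3 Tgfbr2f/f libraries and lines are their means. Alas2 is the gene whose groups lie farthest apart, at 2.04 to 2.71 FPKM in ECKO and 0.461 to 0.826 FPKM in Tgfbr2f/f.

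The other enzymes of heme breakdown had positive log2 fold changes and did not pass. Of Hmox2, Blvra and Blvrb, 0 were called by edgeR after adjustment, 1 (Blvra) had p under 0.05 before it, and DESeq2 and limma-voom called none. Blvra, a biliverdin reductase that acts after heme oxygenase, held 17.2, 17.3 and 14.7 CPM in ECKO and 11.1, 13.1 and 12.8 CPM in f/f, without overlap (log2 fold change 0.41, SE 0.14, adjusted p = 0.128). Hmox2, the constitutive heme oxygenase, held 88.6 to 95.2 CPM in ECKO and 63.9 to 88.1 CPM in f/f (0.22, SE 0.13, adjusted p = 0.353), and Blvrb, the second biliverdin reductase, 34.5 to 38.1 CPM in ECKO and 32.8 to 37.5 CPM in f/f (0.05, SE 0.10, adjusted p = 0.784). Under total count scaling and on FPKM, Hmox2 and Blvrb turned slightly negative.

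Of 13 genes of mitochondrial transport and ALAS control, edgeR and DESeq2 called 1 higher and 12 did not pass, with a median of -0.05, and limma-voom called 0. The gene that rose was Slc25a37, mitoferrin 1, which carries iron into mitochondria and is best known, like Alas2, from developing red cells. It held 270, 290 and 274 CPM in the ECKO libraries and 212, 161 and 186 CPM in the f/f libraries (log2 fold change 0.58, SE 0.12, adjusted p = 0.0433). Every ECKO library was higher than every f/f library. The call did not hold in 10 of the 14 alternatives. It was lost under total count scaling (adjusted p = 0.172), with limma-voom (0.0509) and on FPKM (0.217 and 0.216), and of the libraries left out in turn only the fit lacking f/f replicate 1 kept it (0.0179), the other 5 giving 0.103 to 0.162. Its paralog Slc25a28, mitoferrin 2, held 37.0 to 39.0 CPM in ECKO and 27.7 to 43.9 CPM in f/f (adjusted p = 0.625). Slc25a38, the mitochondrial carrier that supplies glycine to ALAS, held 17.5 to 24.1 CPM in ECKO and 14.8 to 15.5 CPM in f/f (0.39, SE 0.15, adjusted p = 0.174), and Abcb6, a porphyrin transporter, 5.40 to 6.42 CPM in ECKO and 6.73 to 8.20 CPM in f/f (-0.31, SE 0.17, adjusted p = 0.320). Clpx and Lonp1, subunits of mitochondrial proteases that act on ALAS, had log2 fold changes of -0.08 and -0.07. Slc25a39, a glutathione carrier, held 47.7 to 67.6 CPM in ECKO and 42.7 to 51.4 CPM in f/f (0.36, SE 0.15, adjusted p = 0.197).

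Of 10 genes of heme and hemoglobin uptake and export, 9 were tested, edgeR and limma-voom called 1 lower and 8 did not pass (median 0.20), and DESeq2 called 1 lower and 1 higher. Lrp1, which takes up heme bound to hemopexin among many other ligands, held 48.3, 41.4 and 53.8 CPM in the ECKO libraries and 113, 131 and 127 CPM in the f/f libraries. The groups stood far apart (log2 fold change -1.37, SE 0.12, adjusted p = 0.00853), and the call held under all 14 alternatives. Stellate cells also express Lrp1, and stellate markers moved with it: 7 of 12 were lower and 0 higher in edgeR, among them Tcf21 (-2.04, SE 0.20), Dcn (-1.03, SE 0.15) and Colec11 (-0.70, SE 0.12), and the list summed to 879 to 1229 CPM in ECKO and 1761 to 2794 CPM in f/f. Their part in the Lrp1 difference was not tested. Abcg2, an exporter of porphyrin and heme, held 80.7 to 102 CPM in ECKO and 51.1 to 70.7 CPM in f/f and missed the threshold in edgeR (0.63, SE 0.15, adjusted p = 0.0588), while DESeq2 called it higher (0.00748). Stab1, a scavenger receptor of the sinusoid, held 3217 to 3928 CPM in ECKO and 2652 to 3665 CPM in f/f (adjusted p = 0.450). Cd163, the hemoglobin receptor of macrophages, was at 0.930 to 3.93 CPM in ECKO and 0.585 to 2.26 CPM in f/f, and Flvcr1, the heme exporter listed in the table as Mfsd7b, held 13.5 to 14.0 CPM in ECKO and 13.2 to 16.3 CPM in f/f (-0.06, SE 0.13, adjusted p = 0.820).

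Of 14 genes of cellular iron supply and storage, 0 passed in edgeR, 3 had p under 0.05 before adjustment, and DESeq2 called 1, Cp, with limma-voom calling none (median -0.06). In all, 7 of the 14 alternatives called Cp lower, among them total count scaling, RLE size factors and leaving out f/f replicate 1 or 2. Cp, the copper ferroxidase ceruloplasmin, held 50.1, 53.3 and 51.4 CPM in ECKO and 77.9, 151 and 93.5 CPM in f/f (-1.06, SE 0.23, adjusted p = 0.0529). Tfrc, the transferrin receptor that red cell precursors need in quantity, held 1.80, 1.74 and 1.15 CPM in ECKO and 2.80, 3.00 and 2.90 CPM in f/f (-0.89, SE 0.28, adjusted p = 0.114). Slc39a14, a zinc and iron importer, and Ireb2, the iron regulatory protein 2 gene, were each lower in all ECKO libraries without passing (-0.48, SE 0.19, adjusted p = 0.183, and -0.19, SE 0.10, adjusted p = 0.284). The ferritin chains Fth1 and Ftl1 had log2 fold changes of -0.03 and 0.25, with overlapping groups.

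Of 16 genes of the BACH1 and NRF2 pathway, which controls Hmox1, 15 were tested, edgeR and limma-voom called 1 higher (median 0.06), and DESeq2 called 2 higher. Gclc, the catalytic subunit of the enzyme that starts glutathione synthesis, held 72.0, 69.8 and 69.4 CPM in ECKO and 44.0, 52.2 and 45.9 CPM in f/f (0.57, SE 0.10, adjusted p = 0.0285). It missed the threshold under total count scaling (0.231), on FPKM with either pseudocount (0.267), without ECKO replicates 1, 2 and 3 (0.103, 0.0512 and 0.0876) and without f/f replicate 3 (0.115). Bach1 held 65.5 to 89.9 CPM in ECKO and 77.5 to 95.3 CPM in f/f, Txnrd1, a thioredoxin reductase, 76.8 to 84.0 CPM in ECKO and 60.8 to 65.4 CPM in f/f (adjusted p = 0.0669 in edgeR and 0.0223 in DESeq2), Keap1, the NRF2 inhibitor, 61.7 to 67.6 CPM in ECKO and 47.7 to 56.3 CPM in f/f (adjusted p = 0.104), Maff, a small MAF partner of both factors, 7.26 to 15.9 CPM in ECKO and 10.1 to 55.95 CPM in f/f (adjusted p = 0.191), and Nqo1, a quinone reductase, 19.8 to 32.8 CPM in ECKO and 11.9 to 24.1 CPM in f/f (adjusted p = 0.396).

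Of 11 regulators of Alas1 transcription, edgeR and limma-voom called 1 higher and 10 did not pass (median -0.08), and DESeq2 called 2 higher. Nr1d1, the heme-binding clock repressor REV-ERB alpha, held 371, 480 and 338 CPM in the ECKO libraries and 185, 234 and 234 CPM in the f/f libraries (0.86, SE 0.16, adjusted p = 0.0327). All ECKO libraries were higher, while the ranges of Alas1 overlapped between the groups. The call was lost under total count scaling (0.0997), on FPKM (0.165 and 0.167), without ECKO replicates 1, 2 and 3 (0.0990, 0.0594 and 0.0657) and without f/f replicates 2 and 3 (0.0690 and 0.107). The time of day of collection is not given. Hnf4a, a hepatocyte transcription factor, held 30.2 to 56.2 CPM in ECKO and 22.4 to 28.4 CPM in f/f (0.78, SE 0.22, adjusted p = 0.0929 in edgeR and 0.0202 in DESeq2), and Ncor1, the corepressor that works with REV-ERB alpha, 103 to 131 CPM in ECKO and 133 to 150 CPM in f/f (adjusted p = 0.317). Ppargc1a, a coactivator that induces Alas1 in fasted liver, was low, at 0.174 to 0.999 CPM in ECKO and 1.04 to 2.06 CPM in f/f (adjusted p = 0.279). Its counts were 15, 3 and 12 in ECKO and 25, 42 and 25 in f/f, so only ECKO replicate 2 was near the limit of detection.

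Of 17 genes for heme-containing proteins or their partners, edgeR called 2 lower and 15 did not pass (median 0.05), DESeq2 called 3 lower and 1 higher, and limma-voom called 1 lower. Cygb, cytoglobin, held 14.4, 12.0 and 14.3 CPM in ECKO and 27.4, 27.2 and 27.3 CPM in f/f (-1.01, SE 0.12, adjusted p = 0.00938), and missed the threshold only without ECKO replicate 1 (0.0509). Gucy1b1, the heme-binding subunit of the nitric oxide receptor, named Gucy1b3 in the table, held 25.5, 14.6 and 25.3 CPM in ECKO and 38.3, 44.6 and 50.1 CPM in f/f (-1.02, SE 0.22, adjusted p = 0.0496). Leaving out f/f replicate 1 kept that call (0.0398), and leaving out each of the other 5 libraries lost it (0.0523 to 0.154), as did limma-voom (0.0549). Cygb stands on the stellate list as well, of which 7 of 12 were lower, Cygb itself among the 7. The part of stellate cells in the Cygb and Gucy1b3 differences was not tested. Ptgs2, the inducible cyclooxygenase, was called lower by DESeq2 (adjusted p = 0.014) and not by edgeR (adjusted p = 0.115), at 0.0573 to 0.988 CPM in ECKO and 1.49 to 5.16 CPM in f/f. Tdo2, tryptophan dioxygenase, which uses heme in hepatocytes, held 29.8 to 52.8 CPM in ECKO and 20.2 to 21.3 CPM in f/f (0.88, SE 0.22, adjusted p = 0.0684 in edgeR and 0.00685 in DESeq2). Por, a partner that donates electrons to cytochromes P450, held 90.9 to 124 CPM in ECKO and 67.4 to 81.4 CPM in f/f (adjusted p = 0.108). Of 12 hepatocyte markers, 8 had a positive log2 fold change (median 0.49), and edgeR called 1, Cyp3a11, which was lower, at 1.72 to 3.72 CPM in ECKO and 12.3 to 14.0 CPM in f/f (adjusted p = 0.00963; 0.0589 without ECKO replicate 1). Apoa1, an apolipoprotein, held 45.1 to 110 CPM in ECKO and 21.96 to 44.3 CPM in f/f, without overlap (1.07, SE 0.38, adjusted p = 0.162), and DESeq2 called it higher (0.0292). Pck1, an enzyme of gluconeogenesis, held 125 to 272 CPM in ECKO and 34.5 to 149 CPM in f/f (1.16, SE 0.54, adjusted p = 0.256). The hepatocyte list summed to 994 to 1901 CPM in ECKO and 959 to 1794 CPM in f/f.

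Mitochondrial genome transcripts, a sign of RNA content and handling, took 19.7% to 32.4% of counts in the ECKO libraries and 11.5% to 23.5% in the f/f libraries. The means were 25.3% ± 6.47 in ECKO and 16.4% ± 6.33 in f/f (SD, n = 3 each; exact permutation test, two-sided, p = 0.2, where 3 libraries against 3 cannot go below 0.1). None of the 13 transcripts passed with edgeR, 7 having p under 0.05 before adjustment; DESeq2 called 3 higher and limma-voom 0. ECKO replicate 1, which had the highest Alas2 level, also had the highest mitochondrial share. The other libraries did not keep that order. Within f/f, replicate 3 had the highest Alas2 level (2.28 CPM) and the lowest share (11.5%). Within ECKO, replicate 2 had the lowest share (19.7%), with Alas2 at 8.42 CPM, above replicate 3 at 6.996 CPM. Whether the share has a part in the Alas2 difference was not tested; the difference was 1.98 on the log2 scale under total count scaling, in which the mitochondrial counts enter the library size, and 2.22 under TMM.

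**Figure D5:**
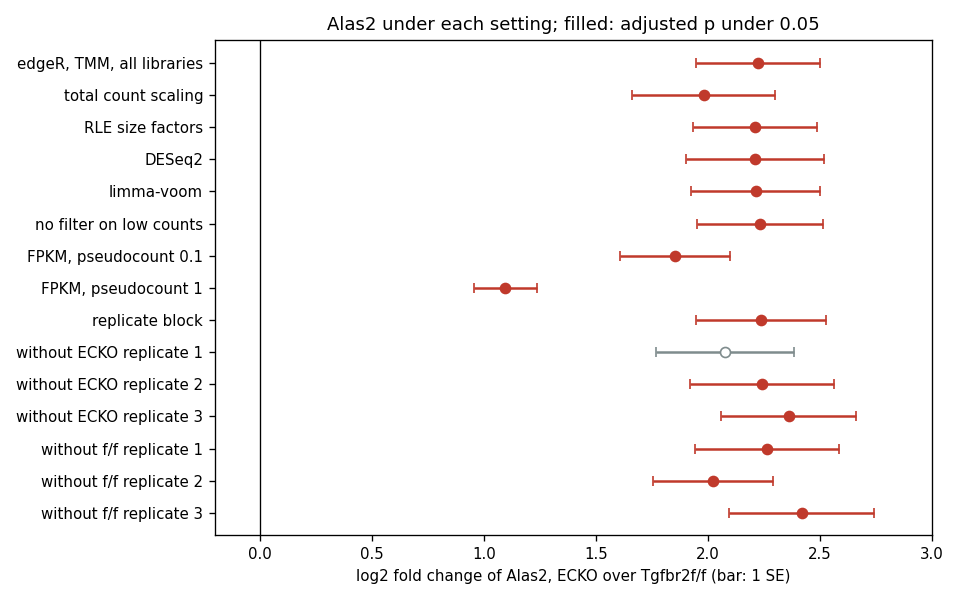
Log2 fold change of Alas2, ECKO over Tgfbr2f/f, with 1 SE under the fit used here and 14 alternatives; filled points have an adjusted p under 0.05. The values run from 1.10 on FPKM with a pseudocount of 1 to 2.42 without f/f replicate 3, and the open point is the fit without ECKO replicate 1.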

How the data were processed

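RNA-seq counts of LSECs from 3 ECKO and 3 f/f libraries were analysed. Per the file headers, the deposited columns are unscaled counts, in whole numbers, and FPKM calculated by the authors. The FPKM equalled count over a gene length and the library total to within a relative difference of 2.86e-06. The submitters' processing notes name HISAT2 2.0.4 and StringTie 1.3.0, without roles, and list mm10 and GRCm38.p4 as builds. No source used here names the counter, the annotation or a strand setting. The labels' protocols say that mRNA was separated from total RNA before fragmentation.

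Counts were tested with edgeR 4.0.16 in R 4.3.3: filterByExpr (minimum count 10, minimum total 15) left 13692 genes, libraries were scaled by TMM, and ECKO was compared with f/f by the quasi-likelihood F-test (robust, genotype only, two-sided). P-values were adjusted by Benjamini-Hochberg and called under 0.05. Fold changes are ECKO over f/f; an SE is the size of the log2 fold change over the root of its F statistic. The tests were tested on simulated data. Alternatives were DESeq2 1.42.0, limma-voom and limma on log2 FPKM (limma 3.58.1; pseudocounts 0.1 and 1, mean FPKM over 0.5), which understates changes of low genes, other scalings, no filter, a replicate block and leaving out each library.

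The members and the 13 lists were chosen with earlier results of these data known. The rule for named genes takes the 9 members, the other enzymes of the pathway, genes of the other lists (up to 4 with the smallest p each) and the 3 genes most like Alas2; further list genes, such as Slc25a28, Fth1, Bach1, Nqo1 and Epor, and Apex2, B4galt3 and Tgfbr2, were named after their values were seen. Of the list genes, 3 were matched by identifier. A few genes of the lists are not reported here. Floors cover counting error only. Promoter windows are RefSeq's.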

Additional observations from a re-analysis of the deposited data

How the results depend on the processing

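Of the 14 alternatives, Alas2 kept its direction in all and passed the threshold in 13, the exception being the fit without ECKO replicate 1; its log2 fold change was 1.10 to 2.24 over the other fits and 2.02 to 2.42 with a library left out (adjusted p 0.0127 to 0.0592). Accordingly the number of the 9 genes called was 1 throughout, or 0 to 1 with a library left out. Values near 0 changed sign with scaling: under total count scaling, FPKM with pseudocount 0.1 and FPKM with pseudocount 1, Alas1 was at -0.16, -0.15 and -0.13, Cpox at -0.13, -0.12 and -0.11, Fech at -0.16, -0.15 and -0.14, and Hmox1 at -0.102, -0.0788 and -0.0773. With a library left out Alas1 ranged from -0.0238 to 0.251. The cause was not tested.

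The count of all genes called was 552; it was 1272 under total count scaling, 1508 with DESeq2, 307 with limma-voom, and 35 to 1012 with a library left out (1012 without f/f replicate 1 and 35 without ECKO replicate 1). Calls that were higher in ECKO made up 30.8%, against 4.95% under total count scaling and 7.72% on FPKM. Of the genes on the 7 related lists 6 were called, 12 with DESeq2, 3 on FPKM with pseudocount 1, and 1 to 7 with a library left out.

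The replicate numbers did not pair the libraries: same-numbered libraries deviated from their group means with correlations of 0.09, 0.15 and -0.05. With the replicate block 416 genes were called and Alas2 was at 2.24 (adjusted p = 0.0232). Under that block Slc25a37 (0.0655), Gucy1b3 (0.0573) and Pecam1 (0.0626) were not called, while Cp, Hnf4a and Ptgs2 were. Depth limits Uros and Alas2 most, with 26 to 156 counts a library for Alas2.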
